A study of Mus musculus with 36 samples.

Results

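Perineuronal nets are lattices of extracellular matrix that surround the cell body and proximal dendrites of some neurons, and in the cortex they are best known around fast-spiking interneurons that make parvalbumin. A backbone of hyaluronan, spun out at the plasma membrane by hyaluronan synthases, carries the lecticans, a family of chondroitin sulfate proteoglycans. Link proteins clamp the lecticans to hyaluronan, and tenascins join the lecticans to each other. The 10 genes described here encode these parts, namely the lecticans aggrecan (Acan), brevican (Bcan), neurocan (Ncan) and versican (Vcan), the link proteins Hapln1 and Hapln4, the tenascins Tnr and Tnc, and the hyaluronan synthases Has2 and Has3. They were taken by symbol from 26709 genes in the RNA table, with the authors' gene list giving the symbols, and all 10 were found. All 10 were also among the 16209 genes tested, those with a mean of at least 10 normalized reads over all libraries. The set was picked with RNA values in view, because Acan was among the largest rises 10 h after KCl. The KCl 10 h RNA values, and every RNA difference that uses them, are therefore given as a description with no test. That rise was measured against unstimulated controls, which also serve the other comparisons with controls. The p-values of Acan against controls are thus not independent of how the set was picked.

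Neurons came from the cortex of CD-1 mouse embryos at embryonic day 15, with the tissue of all embryos dissociated together, and were used after 7 days in culture. All groups spent 2 h in 100 µM AP-5, which blocks NMDA receptors, and 1 µM TTX, which blocks voltage-gated sodium channels, before any stimulus. Stimulated groups then received 10 ng/ml BDNF, a neurotrophin that acts through the TrkB receptor, or 55 mM KCl, which depolarizes the membrane, for 1, 6 or 10 h. Controls of those times stayed in AP-5 and TTX for 3, 8 or 12 h in total. RNA-seq and ATAC-seq, which counts transposase cuts in open chromatin, were each done in 2 libraries for each of 9 groups, and the 6 controls were pooled as 1 group. By the study's account the libraries of a group are biological replicates, while the labels do not name separate cultures, so the p-values measure the spread between these libraries.

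The cultures were young and mixed, and RNA came from all cells in the well, so fewer cells of a type and less RNA per cell cannot be told apart. RNA libraries held 8.51 to 36.7 M reads (median 11.6 M) and ATAC libraries 1.24 to 6.24 M reads in peaks (median 3.55 M). Pan-neuronal markers were high in every library, with a sum over 5 genes of 45127 to 50141 normalized reads in controls. Pvalb, which marks the interneurons best known for nets, was at 0 to 1.14 in controls and at most 2.74 in any library, while the summed level of 8 GABAergic interneuron markers was 11558 to 14334 in controls, 15751 to 17107 across the BDNF libraries, 14588 to 17092 at KCl 1 h, 20004 to 20330 at KCl 6 h and 17916 to 19679 at KCl 10 h. Of the 7 tested interneuron markers, 5 were higher and 2 lower at KCl 6 h (adjusted p below 0.1 by limma). Of all genes tested, 33.4% were higher and 33.1% lower at that time. Sst made much of the summed rise, from 1611 to 2781 in controls to 5974 to 7586 at KCl 6 h, while the transcription factors of the lineage were the lower ones, Dlx1 at 4357 to 4892 in controls, 3074 to 3887 at KCl 6 h and 3687 to 4052 at KCl 10 h, and Lhx6 at 697 to 818, 484 to 640 and 567 to 579. The summed level of 7 astrocyte markers went the other way, from 13569 to 18301 in controls to 12899 to 13431 at BDNF 6 h and 11365 to 13383 at KCl 6 h. Their part in the values below was not tested. In KCl 6 h library B, the predicted gene Gm42418 took 3.26% of reads against at most 0.401% in the others. The shallowest ATAC library was also at KCl 6 h. It is called B only from its column order, with no known link to RNA library B. Most KCl 6 h results are therefore also given without library B of the same assay.

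Aggrecan moved furthest of the 10 genes. Its RNA rose within 1 h of BDNF and was back among the controls by 10 h, whereas after KCl it was 1.99-fold higher at 1 h and far higher at 6 and 10 h. The link protein Hapln1 moved in opposite directions, lower at 6 and 10 h of BDNF and higher at 6 h of KCl. Hapln4 rose at 1 h of both stimuli, Tnc rose at 6 and 10 h of BDNF and fell at 6 h of KCl, and the abundant lecticans Ncan and Vcan fell at 6 h of both. A call here means an adjusted p below 0.1 by limma, with Benjamini-Hochberg adjustment over all genes tested, and differences are on the scale of log2(normalized reads + 1).

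At BDNF 1 h, 4 of the 10 genes were called beside 40.4% of all genes tested, with 2 higher (all genes 21.3%) and 2 lower (19.0%), which is a share at the background. At BDNF 6 h, 6 were called beside 43.3%, with 2 higher (22.1%) and 4 lower (21.1%). At BDNF 10 h, 5 were called beside 40.6%, with 2 higher (21.1%) and 3 lower (19.5%). KCl 1 h called 5 beside 54.7%, with 3 higher (26.5%) and 2 lower (28.2%), and 3 without KCl 1 h library B. KCl 6 h called 8 beside 66.5%, with 4 higher (33.4%) and 4 lower (33.1%), and 7 without library B. The median size of the log2 difference was 0.40 for the 10 genes at BDNF 6 h against 0.23 for all genes, 0.45 against 0.38 at KCl 6 h, and 0.21 against 0.21 at BDNF 1 h. Because both stimuli were compared with the same 6 controls, the values for the 2 stimuli are not independent of each other. Time in silenced culture alone called none: controls of 6 h and of 10 h against those of 1 h gave 0 of 10 genes by limma, by edgeR and by DESeq2, 0 at an unadjusted p below 0.05, and 0.0% of all genes.

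**Figure D1:**
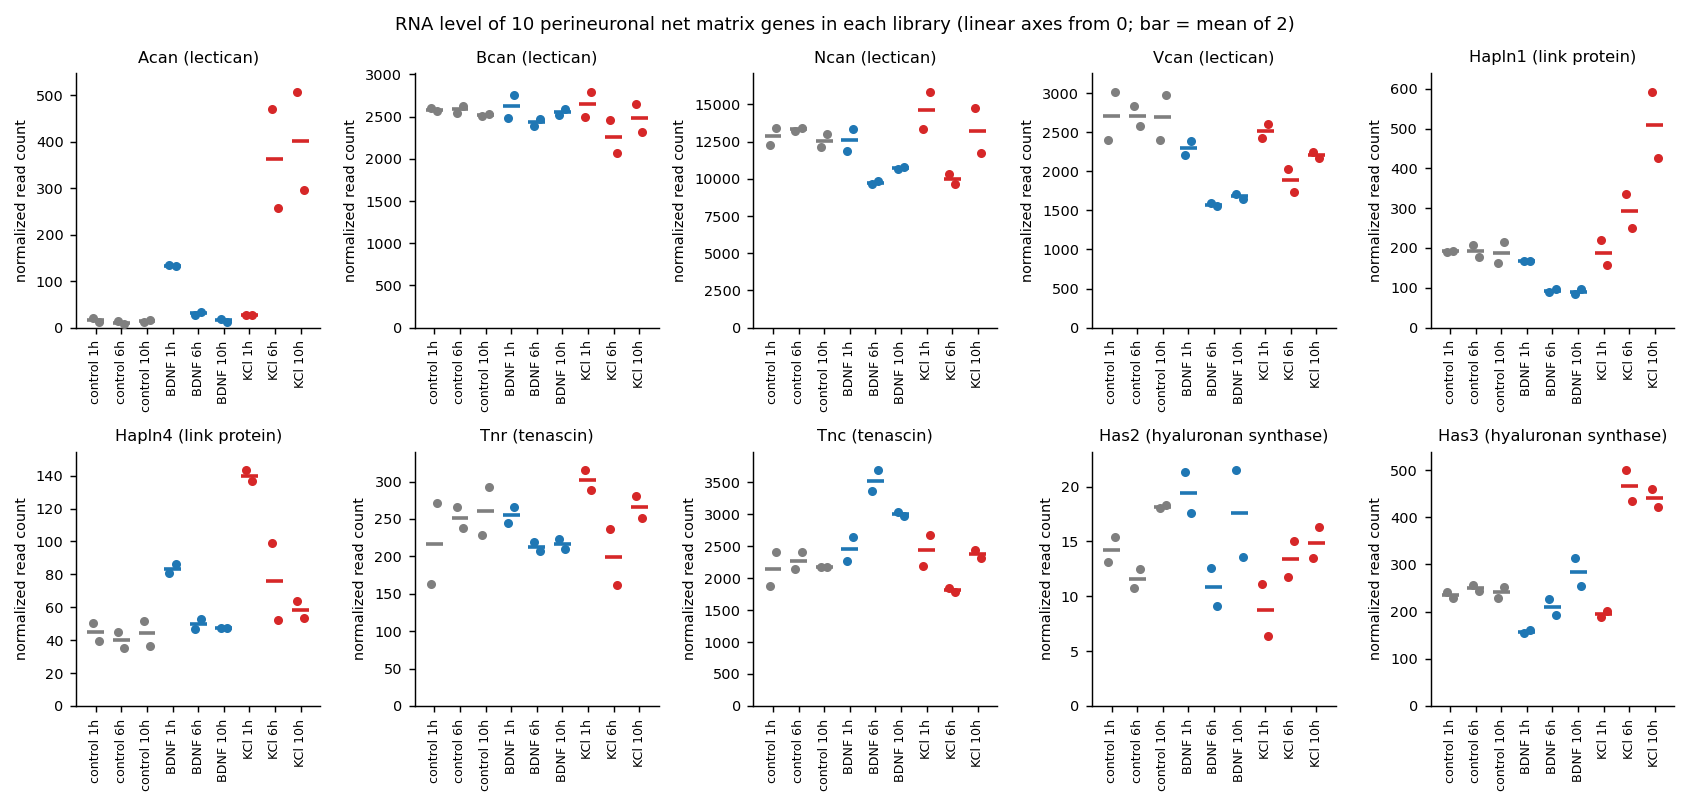
Normalized read counts of the 10 genes in each library, 1 panel per gene with linear axes from 0, control libraries in gray, BDNF in blue, KCl in red and a bar at the mean of the 2 libraries of a group. Acan sits near 13.6 in controls and reaches 470 and 258 at KCl 6 h, while Bcan stays between 2066 and 2791 in all libraries.

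The lecticans differ in their chondroitin sulfate load and in when they appear, and aggrecan (Acan, ENSMUSG00000030607, chr7:79053483-79115099 on the plus strand, GRCm38) is the one that marks mature nets. Control libraries held 7.26 to 20.4 normalized reads (median 12.9), from 7 to 62 reads each, few enough that counting error adds to their spread. The BDNF libraries held 134 and 134 (1 h), 27.9 and 33.9 (6 h) and 19.2 and 12.9 (10 h). After KCl they held 27.2 and 26.7 (1 h), 470 and 258 (6 h) and 507 and 297 (10 h). Every library at BDNF 1 and 6 h and at all KCl times was above the highest control, and only the BDNF 10 h libraries lay within the control range.

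Acan was 9.85-fold higher at BDNF 1 h than in controls (log2 difference 3.27 ± 0.29 SE, adjusted p = 2.17e-08, limma) and still 2.28-fold higher at 6 h (1.18 ± 0.29, adjusted p = 0.00315). At BDNF 10 h the difference was 0.26, with a 95% interval of -0.34 to 0.86. KCl 1 h gave 1.00 ± 0.29 (adjusted p = 0.0072), a call that edgeR on whole reads did not make (adjusted p = 0.107), nor did a fit against same-time controls (adjusted p = 0.105). KCl 6 h gave 4.64 ± 0.29 (26.8-fold, adjusted p = 5.03e-11), and 5.07 without library B. At KCl 10 h, the comparison used to pick the set, Acan was 29.7-fold higher (4.80), the 6th largest rise of all genes tested, and 0.16 above KCl 6 h on the log2 scale with overlapping libraries.

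The stimuli differed in their timing for Acan by direct tests. It was 4.96-fold higher with BDNF than with KCl at 1 h (log2 difference 2.27 ± 0.35, adjusted p = 3.58e-05) and 11.8-fold lower with BDNF at 6 h (-3.46 ± 0.35, adjusted p = 1.05e-07; -3.89 without KCl 6 h library B). Between 1 and 6 h it fell by 2.08 under BDNF (adjusted p = 0.000165) and rose by 3.64 under KCl (adjusted p = 5.22e-08; 4.07 without KCl 6 h library B). The change from BDNF 6 h to 10 h, -0.92, had an unadjusted p of 0.0167 and an adjusted p of 0.636. At 10 h the BDNF libraries were 25.1-fold below the KCl libraries, a value from the comparison used to pick the set.

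The start of Acan lay in open chromatin in all conditions. Its only peak within 50 kb of the start, or in the gene body, was the promoter peak at chr7:79052671-79053389 (GRCm38), with its midpoint 0.453 kb before the annotated start. The promoter as listed by RefSeq for GRCm38.p6, chr7:79052976-79053275 on the plus strand, lies whole within that peak, and it is shown because Acan carried the largest RNA changes of the set. It is 74.0% G and C. None of the 5 motifs searched on both strands, AP-1 (TGANTCA), CRE (TGACGTCA), the CRE half-site (TGACG, which is also part of a CRE), EGR (GCGNGGGCG) and MEF2 (CTA and TAG with any 4 bases between them), matched in it, so no base is in capitals. The rest of the peak held 1 CRE half-site.

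Acan promoter: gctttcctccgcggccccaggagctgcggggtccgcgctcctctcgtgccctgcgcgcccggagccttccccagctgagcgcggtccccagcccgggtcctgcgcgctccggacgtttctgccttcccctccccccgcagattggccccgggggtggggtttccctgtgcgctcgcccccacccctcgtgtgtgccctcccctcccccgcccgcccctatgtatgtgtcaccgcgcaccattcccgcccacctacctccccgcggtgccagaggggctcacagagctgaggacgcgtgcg

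Of 32817 RefSeq promoters of the same length, 7.81% held the AP-1 letters, 1.79% the CRE, 20.8% the CRE half-site, 5.56% EGR and 3.69% MEF2. Accessibility of the Acan promoter peak, in ATAC reads scaled between libraries, was 27.7 and 27.6 (1 h), 40.6 and 41.0 (6 h) and 36.2 and 35.0 (10 h) in controls. With BDNF it was 39.7 and 47.0 (1 h), 44.1 and 28.1 (6 h) and 26.6 and 31.9 (10 h). With KCl it was 63.9 and 69.7 (1 h), 35.9 and 47.2 (6 h) and 47.5 and 29.6 (10 h).

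Of the 6 stimulated groups, only KCl 1 h had both libraries above all controls at this peak (log2 difference 0.95 ± 0.25, adjusted p = 0.0127 by edgeR), and the call ended on leaving out KCl 1 h library B (adjusted p = 0.196). At the times when Acan RNA was highest, the peak differed from controls by 0.20 at KCl 6 h (adjusted p = 0.803) and by 0.15 at KCl 10 h (adjusted p = 0.859). Without KCl 6 h library B the difference at KCl 6 h was 0.05. BDNF 1 h, with its large rise in RNA, gave 0.33 ± 0.27 (adjusted p = 0.521), and the direct difference between BDNF and KCl at 1 h, -0.62 ± 0.31, was not called (adjusted p = 0.209).

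**Figure D2:**
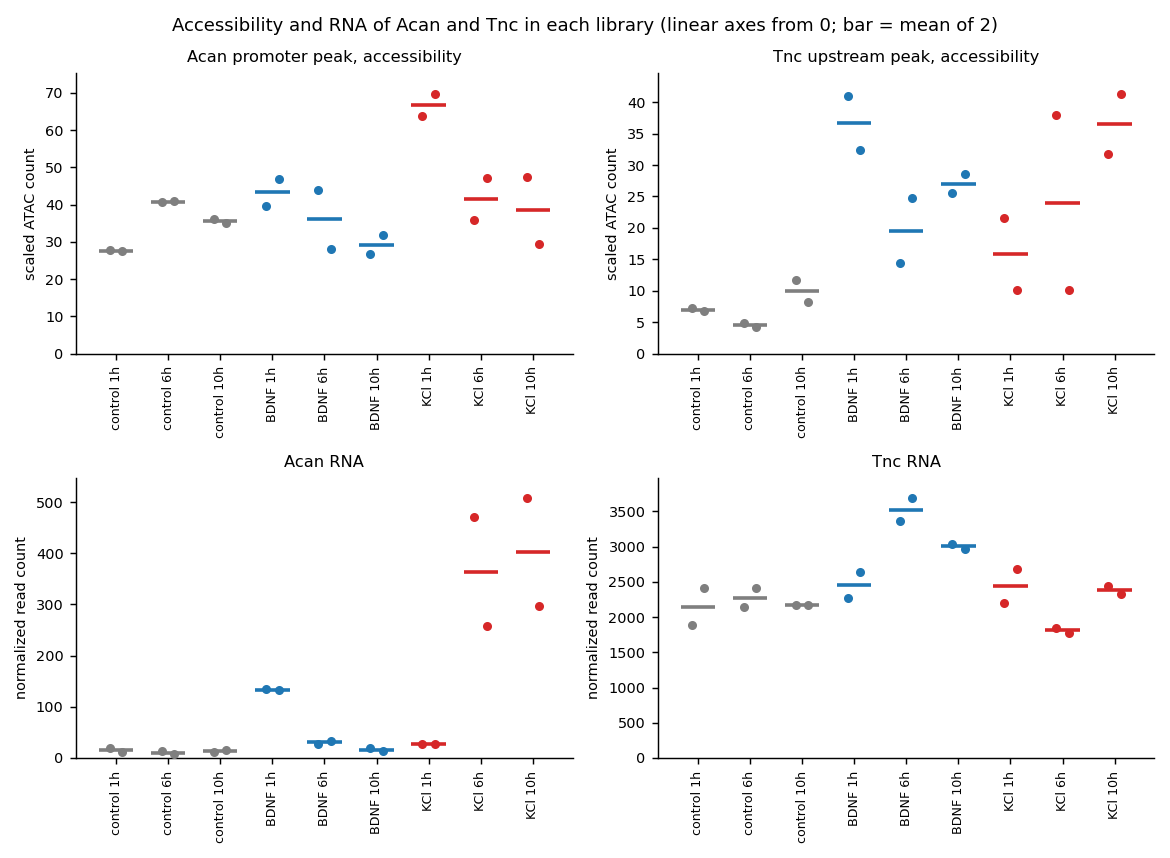
Scaled ATAC read counts (top) and normalized RNA read counts (bottom) in each library for the Acan promoter peak and RNA (left) and the Tnc upstream peak and RNA (right), with linear axes from 0 and a bar at the mean of 2 libraries. The Acan peak is highest at KCl 1 h (63.9 and 69.7) while Acan RNA is highest at KCl 6 h and 10 h, and the Tnc peak is at 4.16 to 11.7 in controls and 32.4 and 40.9 at BDNF 1 h.

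Neurocan (Ncan, ENSMUSG00000002341, chr8:70093085-70120873 on the minus strand) is the lectican of the developing brain, and it was the most abundant of the 10 genes. Its 6 controls ranged from 12123 to 13445 normalized reads (median 13109). BDNF gave 11873 and 13324 (1 h), 9636 and 9822 (6 h) and 10640 and 10821 (10 h), and KCl gave 13378 and 15831 (1 h), 10313 and 9627 (6 h) and 14733 and 11705 (10 h). All libraries at BDNF 6 and 10 h and at KCl 6 h were below the lowest control.

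Ncan fell by 0.41 ± 0.08 on the log2 scale at BDNF 6 h (adjusted p = 0.000243), by 0.27 at BDNF 10 h (adjusted p = 0.0105, and 0.12 against same-time controls) and by 0.37 at KCl 6 h (adjusted p = 0.000226; -0.32 without library B). At KCl 1 h it was higher by 0.17 (adjusted p = 0.0656) although library A lay within the control range, a call ended by leaving out KCl 1 h library B (adjusted p = 0.705) or control 10 h library A (adjusted p = 0.108). BDNF and KCl differed at 1 h by -0.21 (adjusted p = 0.0843) and were close at 6 h, with -0.03 and a 95% interval of -0.23 to 0.16 (-0.08 without KCl 6 h library B). The call at 1 h ended on leaving out BDNF 1 h library A (adjusted p = 0.466), BDNF 6 h library A (0.101) or B (0.101), or KCl 1 h library B (0.60).

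Versican (Vcan, ENSMUSG00000021614, chr13:89655312-89742509 on the minus strand), an embryonic lectican also made by glia, followed a similar order. Controls held 2402 to 3012 normalized reads (median 2705). With BDNF it held 2202 and 2389 (1 h), 1597 and 1550 (6 h) and 1715 and 1649 (10 h). With KCl it held 2421 and 2607 (1 h), 2030 and 1734 (6 h) and 2250 and 2165 (10 h). Every BDNF library and the libraries at KCl 6 and 10 h were below the lowest control.

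The fall of Vcan was 0.77 ± 0.08 at BDNF 6 h (1.72-fold, adjusted p = 2.62e-07), 0.68 at BDNF 10 h (adjusted p = 2.65e-06) and 0.52 at KCl 6 h (adjusted p = 1.68e-05; -0.41 without library B). At BDNF 1 h it was 0.23 lower (adjusted p = 0.0397), which ended on leaving out BDNF 1 h library A (adjusted p = 0.35) and against same-time controls (adjusted p = 0.161). Vcan was lower with BDNF than with KCl at 6 h by 0.25 (adjusted p = 0.0444), a call ended by leaving out KCl 6 h library A (adjusted p = 0.334), BDNF 6 h library A (0.1004) or BDNF 6 h library B (0.164), and it was 0.37 lower without KCl 6 h library B. Glial markers moved at these times too. At BDNF 6 h all 6 tested astrocyte markers were lower. Of 7 oligodendrocyte lineage markers 4 were lower and 1 higher, and of 6 radial glia and progenitor markers 3 were lower and 0 higher. Of all genes tested, 21.1% were lower and 22.1% higher. The KCl 6 h libraries had 5 of 6 astrocyte markers lower. They had 4 oligodendrocyte lineage markers lower and 2 higher, and 2 radial glia markers lower and 1 higher. Of all genes tested, 33.1% were lower and 33.4% higher at KCl 6 h. The summed oligodendrocyte lineage markers held 6035 to 6501 normalized reads in controls. That sum was 5647 to 5767 at BDNF 6 h and 6983 to 7351 at KCl 6 h. The part of glial markers in the fall of Vcan was not tested.

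Brevican (Bcan, ENSMUSG00000004892, chr3:87987531-88000230 on the minus strand), a lectican of adult brain held at synapses and nets, was called against controls at 1 time. Controls held 2507 to 2629 normalized reads (median 2555), and all stimulated libraries lay between 2066 (KCl 6 h B) and 2791 (KCl 1 h B). That call was -0.19 ± 0.07 at KCl 6 h (adjusted p = 0.0234), where library A held 2456 and library B 2066, and it was lost without library B (-0.06, adjusted p = 0.534). BDNF 6 h against KCl 6 h gave 0.11 (adjusted p = 0.292), with 0.23 without KCl 6 h library A and -0.02 without KCl 6 h library B. In the other tested comparisons with controls the differences were -0.08 to 0.04, and the widest bounds of their 95% intervals were -0.22 and 0.19.

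Read per kilobase of exon, the order of the 4 lecticans did not change, although Acan moved within the set of 10. In controls the means were 1795 normalized reads per kb for Ncan, 631 for Bcan, 283 for Tnc and 187 for Vcan, and these 4 held the first 4 places in every group, with no overlap between neighbors in that order. They were followed in controls by Has3 at 38.0 and Hapln1 at 32.3, which overlapped, then Tnr at 18.9 and Hapln4 at 11.0, which overlapped, and last Has2 at 3.46 and Acan at 1.82, which overlapped too. Acan was at 17.9 per kb at BDNF 1 h, 9th of 10, and at 48.7 at KCl 6 h, 7th of 10 and overlapping Hapln1 at 49.7. As a share of the summed level per kb of the 4 lecticans, Acan made 0.0361% to 0.108% in controls, 0.659% and 0.736% at BDNF 1 h, and 1.73% and 2.81% at KCl 6 h, while Ncan made 64.0% to 71.7% across all libraries.

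Each lectican gene has a link protein gene beside it in the genome. Acan and Hapln3 end 2 bp apart and tail to tail, Ncan and Hapln4 are 2.22 kb apart and tail to tail, Vcan and Hapln1 are 43.7 kb apart and tail to tail, and Bcan and Hapln2 are 21.5 kb apart in the same direction, with 0 protein-coding genes between the members of any pair. At KCl 6 h, Hapln1 was called higher and Vcan lower, and Hapln4 higher and Ncan lower. Strand-blind counting could mix reads at the touching ends of Acan and Hapln3, and the sources used here do not state whether counting used strand.

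Hapln1 (ENSMUSG00000021613, chr13:89539796-89611652 on the plus strand), the cartilage link protein that nets need to condense, had the largest difference between the stimuli at 6 h after Acan. In controls it held 162 to 215 normalized reads (median 191). BDNF left 167 and 167 (1 h), 89.2 and 97.0 (6 h) and 83.6 and 96.9 (10 h), and KCl left 220 and 156 (1 h), 335 and 251 (6 h) and 592 and 426 (10 h). The BDNF 6 and 10 h libraries were all below the controls and the KCl 6 and 10 h libraries all above them, while both 1 h groups overlapped them.

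Hapln1 was 2.05-fold lower at BDNF 6 h (log2 difference -1.02 ± 0.15, adjusted p = 1.01e-05) and 2.11-fold lower at BDNF 10 h (-1.07 ± 0.15, adjusted p = 8.13e-06). At KCl 6 h it was 1.54-fold higher (0.61 ± 0.15, adjusted p = 0.00101; 0.82 without library B and 0.40 without library A, adjusted p = 0.0602), and at KCl 10 h, with no test, 2.67-fold higher (1.40), the 247th largest rise of all genes tested. The direct difference between BDNF and KCl was -1.63 ± 0.18 at 6 h (adjusted p = 1.39e-07; -1.84 without KCl 6 h library B), and at 10 h, described only, -2.47. At 1 h the difference was -0.15, with a 95% interval of -0.52 to 0.22. From 1 to 6 h Hapln1 fell by 0.84 under BDNF (adjusted p = 0.00117) and rose by 0.64 under KCl (adjusted p = 0.00426; 0.85 without KCl 6 h library B), the latter ended by leaving out KCl 1 h library B (adjusted p = 0.118).

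Hapln4 (ENSMUSG00000007594, chr8:70083457-70090862 on the plus strand), a link protein of inhibitory synapses and nets that pairs with brevican, was an early responder. Its controls held 35.3 to 51.7 normalized reads (median 42.3). After BDNF the values were 80.6 and 86.2 (1 h), 46.8 and 53.1 (6 h) and 47.5 and 47.7 (10 h), and after KCl 143 and 137 (1 h), 99.3 and 52.1 (6 h) and 63.6 and 53.4 (10 h). Both 1 h groups stood clear of the controls, and KCl 6 h library B exceeded the highest control by little.

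The rise was 3.25-fold at KCl 1 h (log2 difference 1.69 ± 0.20, adjusted p = 3.63e-07) and 1.94-fold at BDNF 1 h (0.95 ± 0.20, adjusted p = 0.000716). KCl exceeded BDNF at 1 h (BDNF minus KCl -0.74 ± 0.24, adjusted p = 0.0205), a call ended by leaving out BDNF 1 h library A (adjusted p = 0.109). The KCl 6 h value, 0.74 (adjusted p = 0.00281), fell short once KCl 6 h library A was left out (0.28, adjusted p = 0.289) and was 1.20 without library B. From 1 to 6 h Hapln4 fell by 0.73 under BDNF (adjusted p = 0.0301) and by 0.95 under KCl (adjusted p = 0.00243). The fall under BDNF ended on leaving out BDNF 1 h library B (adjusted p = 0.14) or BDNF 6 h library A (0.165), and the fall under KCl without KCl 6 h library B (0.112). At BDNF 6 h against KCl 6 h the difference was -0.52 (adjusted p = 0.0804; -0.98 without KCl 6 h library B), with libraries that overlapped, and it ended on leaving out KCl 6 h library A (adjusted p = 0.856), BDNF 6 h library A (0.277) or BDNF 6 h library B (0.12).

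The other link proteins and the third hyaluronan synthase were weak in these cultures. Hapln3, the neighbor of Acan, was higher at KCl 1 h (84.4 against 43.3 in controls, log2 difference 0.95 ± 0.23, adjusted p = 0.00193) and lower at KCl 6 h (-0.73, adjusted p = 0.00995; -0.73 without library B). Hapln2, a link protein of myelinated axons at nodes of Ranvier, was at 6.01 to 17.1 in controls with a mean of 3.21 at KCl 6 h, and Has1 was at 0 to 1.96 in controls with a mean of 7.23 at BDNF 1 h. Neither reached the mean of 10 over all libraries needed for a test.

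**Figure D3:**
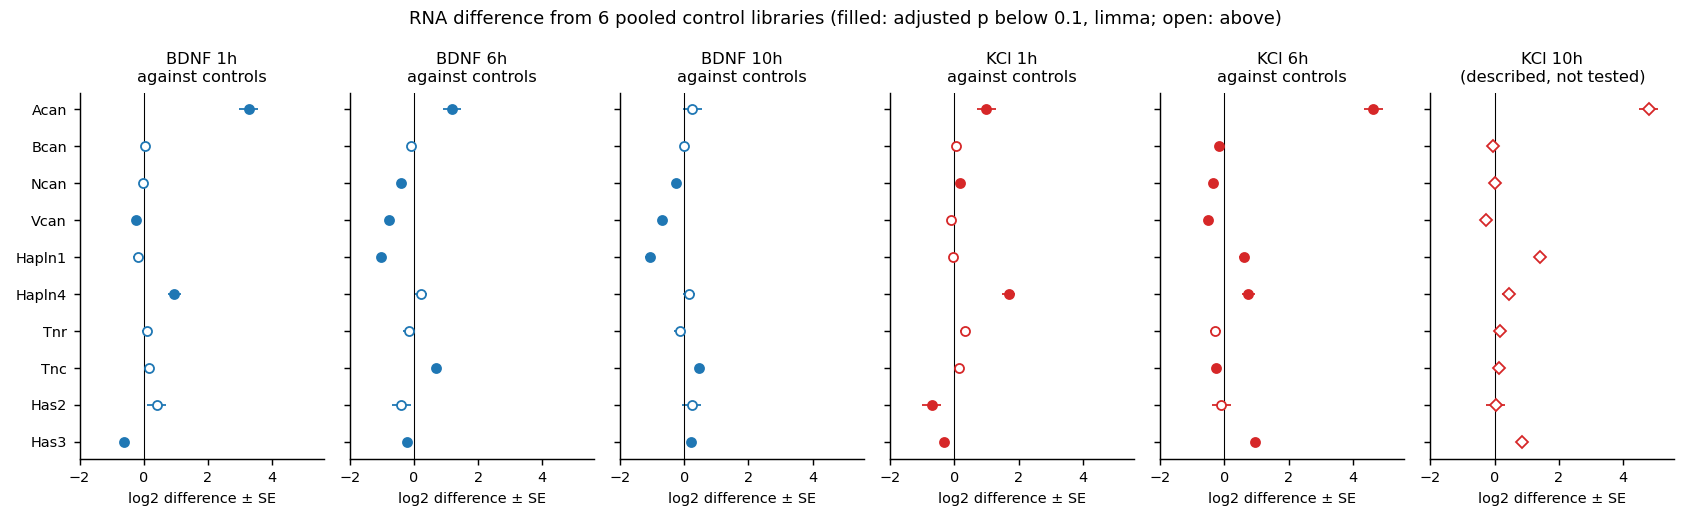
Log2 difference in RNA from the 6 pooled controls with its standard error, 1 panel per stimulus and time and 1 row per gene, filled where the adjusted p by limma is below 0.1. Acan lies furthest right at BDNF 1 h (3.27) and KCl 6 h (4.64), Hapln1 lies left of 0 at BDNF 6 h (-1.02) and right of it at KCl 6 h (0.61), and the KCl 10 h panel is a description with no test.

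Tenascin-R (Tnr, ENSMUSG00000015829, chr1:159523769-159931729 on the plus strand), a glycoprotein of oligodendrocytes and some interneurons that cross-links lecticans, was called against controls in no tested comparison. Controls held 163 to 293 normalized reads (median 251), the BDNF libraries 207 to 266, and the KCl libraries 315 and 289 (1 h), 237 and 162 (6 h) and 281 and 252 (10 h). KCl 1 h library A lay above the control range and KCl 6 h library B just below it, and every other library was within it. At KCl 1 h the difference was 0.33 ± 0.16 (adjusted p = 0.103), just outside the threshold, and it passed with TMM scaling (adjusted p = 0.0984), with edgeR (0.09) and against same-time controls (0.0529), and without control 1 h B (0.0816), control 6 h A (0.0903), control 10 h B (0.0531) or either KCl 6 h library (0.0695 and 0.0696). At KCl 6 h it was -0.28 (adjusted p = 0.144), which passed without control 1 h library A, the lowest control (-0.39, adjusted p = 0.00906), or KCl 6 h library A (-0.56, adjusted p = 0.0227). Leaving out control 1 h library A also brought BDNF 6 h past the threshold (-0.28, adjusted p = 0.0852). From 1 to 6 h of KCl, Tnr fell by 0.62 (adjusted p = 0.0148), which ended when KCl 6 h library B was left out (-0.35, adjusted p = 0.223).

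Tenascin-C (Tnc, ENSMUSG00000028364, chr4:63959785-64047015 on the minus strand) is a tenascin of immature glia and of tissue under repair. Its controls held 1884 to 2413 normalized reads (median 2174). BDNF gave 2273 and 2638 (1 h), 3367 and 3687 (6 h) and 3042 and 2974 (10 h), and KCl gave 2198 and 2677 (1 h), 1845 and 1780 (6 h) and 2448 and 2323 (10 h). The BDNF 6 and 10 h libraries were all above the controls and the KCl 6 h libraries all below them.

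Tnc rose 1.60-fold at BDNF 6 h (log2 difference 0.69 ± 0.09, adjusted p = 2.13e-06) and 1.37-fold at BDNF 10 h (0.46 ± 0.09, adjusted p = 0.000353). At KCl 6 h it fell by 0.27 (adjusted p = 0.00914; -0.25 without library B), and the direct difference between BDNF and KCl at 6 h was 0.96 ± 0.11 (1.95-fold, adjusted p = 1.75e-07; 0.93 without KCl 6 h library B). Under BDNF it rose by 0.52 from 1 to 6 h (adjusted p = 0.000752), and under KCl it fell by 0.42 (adjusted p = 0.00205; -0.39 without KCl 6 h library B). At 1 h the stimuli differed by 0.01, with a 95% interval of -0.21 to 0.23. At KCl 1 h Tnc was at 0.15 (adjusted p = 0.167), which passed without KCl 1 h library A (0.29, adjusted p = 0.0376). The summed astrocyte markers were at 12899 to 13431 at BDNF 6 h and 11365 to 13383 at KCl 6 h, against 13569 to 18301 in controls. Their part in the Tnc values was not tested.

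Tnc also had the peak with the largest gain among the 59 peaks tied to the 10 genes. The peak at chr4:64058973-64059219 (GRCm38), 247 bp wide and 12.1 kb upstream of the annotated start, held scaled ATAC counts of 7.22 and 6.82 (1 h), 4.89 and 4.16 (6 h) and 11.7 and 8.15 (10 h) in controls. BDNF raised it to 40.9 and 32.4 (1 h), 14.4 and 24.7 (6 h) and 25.5 and 28.5 (10 h). The KCl libraries held 21.5 and 10.1 (1 h), 37.9 and 10.2 (6 h) and 31.7 and 41.3 (10 h). All BDNF and KCl 10 h libraries were above the highest control, while 1 library each at KCl 1 h and 6 h was within the control range.

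The log2 difference of this peak was 2.37 ± 0.39 at BDNF 1 h (adjusted p = 3.7e-07, edgeR), 1.51 ± 0.42 at 6 h (adjusted p = 0.00724) and 1.94 ± 0.44 at 10 h (adjusted p = 0.000743). For KCl it was 1.12 ± 0.44 at 1 h (adjusted p = 0.116), 1.98 ± 0.43 at 6 h (adjusted p = 0.000947) and 2.37 ± 0.40 at 10 h (adjusted p = 6.04e-06). The KCl 6 h call rested on library A (0.53 without it, adjusted p = 0.835; 2.43 without library B), and the BDNF 6 h call on library B (adjusted p = 0.441 without it). BDNF exceeded KCl at 1 h by 1.25 ± 0.46 (adjusted p = 0.0609). Against same-time controls the BDNF 10 h call was lost (adjusted p = 0.139). The KCl 1 h value passed by edgeR with TMM scaling (1.16, adjusted p = 0.0877) or DESeq2 size factors (1.14, adjusted p = 0.0929) in place of LOESS offsets. It also passed without control 10 h library A (adjusted p = 0.077), and it was 1.62 without KCl 1 h library B. At KCl 10 h, where the peak was high, Tnc RNA differed from controls by 0.12, with no test.

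Shown next are the sequences of this peak and of the RefSeq promoter of Tnc on chr4:64046966-64047265. Both are read on the minus strand of GRCm38.p6, so that they run toward the gene. They are shown because both lay in regions that gained accessibility with BDNF and also with KCl. Capitals mark the motif matches. The upstream peak held 2 AP-1 matches, at bases 116 to 122 and 229 to 235, and the promoter held 1 EGR match at bases 80 to 88, with no other match to the 5 motifs.

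Tnc upstream peak: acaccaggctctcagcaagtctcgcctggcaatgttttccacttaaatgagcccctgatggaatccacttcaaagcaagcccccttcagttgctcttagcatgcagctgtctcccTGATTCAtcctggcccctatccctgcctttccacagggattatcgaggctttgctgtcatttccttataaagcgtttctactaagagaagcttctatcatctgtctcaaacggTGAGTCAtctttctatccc

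Tnc promoter: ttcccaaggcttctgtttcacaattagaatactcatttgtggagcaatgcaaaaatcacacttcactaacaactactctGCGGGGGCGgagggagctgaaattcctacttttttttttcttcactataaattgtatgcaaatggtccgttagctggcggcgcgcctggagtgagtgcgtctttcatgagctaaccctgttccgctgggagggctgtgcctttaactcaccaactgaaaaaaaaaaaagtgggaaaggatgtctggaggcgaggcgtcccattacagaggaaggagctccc

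Of windows of 247 bp centred on all 58177 peaks, 14.7% held the AP-1 letters and 2.45% held them more than once, beside 3.23% for EGR, 3.70% for MEF2, 14.2% for the CRE half-site and 0.841% for the CRE. These shares are over all peaks, and the share among gained peaks was not counted. The study reports motifs of bZIP factors, the family of AP-1, as the most enriched in gained peaks of both stimuli. A match is a description of letters and not a measured binding site. The promoter peak of Tnc (chr4:64046783-64047563) held 63.8 to 120 scaled counts in controls, 141 and 148 at BDNF 1 h, and 131 and 165 at KCl 1 h. It gained at 1 h of both stimuli (0.69 ± 0.16, adjusted p = 0.000712 for BDNF and 0.73 ± 0.16, adjusted p = 0.00154 for KCl), and the KCl call ended on leaving out KCl 1 h library B (adjusted p = 0.218).

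Of the synthases, Has3 (ENSMUSG00000031910, chr8:106870242-106884566 on the plus strand), which makes shorter hyaluronan chains, dipped and then rose. It is read with caution, because 352 bp of its exons, 5.52% of their length, overlap exons of Chtf8 on the other strand, a gene at 1059 to 1371 normalized reads. Has3 controls held 229 to 257 normalized reads (median 242). BDNF gave 155 and 160 (1 h), 226 and 192 (6 h) and 313 and 254 (10 h), and KCl gave 188 and 202 (1 h), 499 and 435 (6 h) and 460 and 421 (10 h). Both 1 h groups were below all controls, and the KCl 6 and 10 h libraries were far above them.

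At 1 h Has3 was lower by 0.61 ± 0.10 with BDNF (adjusted p = 3.69e-05) and by 0.31 ± 0.10 with KCl (adjusted p = 0.0115, and 0.104 against same-time controls), the latter ended by leaving out KCl 1 h library A (adjusted p = 0.125). At KCl 6 h it was 1.93-fold higher (0.94 ± 0.10, adjusted p = 3.61e-08; 1.04 without library B), and from 1 to 6 h it rose by 1.26 ± 0.12 under KCl (adjusted p = 2.01e-08; 1.35 without KCl 6 h library B) and by 0.40 under BDNF (adjusted p = 0.0159). That rise under BDNF ended on leaving out BDNF 6 h library A (adjusted p = 0.198). BDNF and KCl differed by -1.16 ± 0.12 at 6 h (adjusted p = 6.59e-08; -1.26 without KCl 6 h library B) and by -0.30 at 1 h (adjusted p = 0.0525), the latter ended by leaving out BDNF 1 h library A (adjusted p = 0.193) or B (0.116) or KCl 1 h library B (0.227).

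The smaller calls of Has3 were fragile. At BDNF 6 h it was -0.21 (adjusted p = 0.093), and leaving out control 1 h A, control 6 h A or B, control 10 h B, BDNF 1 h A or B, or BDNF 6 h B ended the call, with adjusted p of 0.105 to 0.636. At BDNF 10 h it was 0.22 (adjusted p = 0.0877), and leaving out control 1 h A or B, control 6 h B, control 10 h A or BDNF 10 h A ended it, with adjusted p of 0.1 to 0.725. These calls of Has3 also depended on the test. The BDNF 6 h call ended by DESeq2 (adjusted p = 0.149), and by limma with TMM scaling (0.104), no filter (0.143) or same-time controls (0.139). The BDNF 10 h call ended by DESeq2 (0.152), and by limma with no filter (0.136) or same-time controls (0.22). DESeq2 did not call Has3 between the stimuli at 1 h either (adjusted p = 0.128). Has2 (ENSMUSG00000022367, chr15:56665627-56694539 on the minus strand), which makes long chains, was near the floor, with 6 to 40 reads per library.

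Has2 controls held 10.8 to 18.3 normalized reads (median 14.2), and the KCl 1 h libraries 11.1 and 6.42. The difference there was -0.70 ± 0.29 (adjusted p = 0.0536), lost by edgeR (adjusted p = 0.108), by DESeq2 (0.23) and without KCl 1 h library B (0.489), and Has2 was lower with KCl than with BDNF at 1 h, where BDNF gave 21.3 and 17.6 (BDNF minus KCl 1.10 ± 0.36, adjusted p = 0.0198). DESeq2 did not make that call either (adjusted p = 0.121), and it ended on leaving out BDNF 1 h library A (adjusted p = 0.126) or KCl 1 h library B (0.208). In the other tested comparisons with controls Has2 differed by -0.39 to 0.40, and at BDNF 1 h the 95% interval was -0.21 to 1.01.

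Tests between the stimuli at 1 h called 5 of the 10 genes beside 42.8% of all genes, with 2 higher under BDNF (all genes 24.6%) and 3 lower (18.2%), and this count was 1 without BDNF 1 h library A and 2 without KCl 1 h library B. At 6 h they called 6 beside 57.3%, with 1 higher under BDNF (29.6%) and 5 lower (27.8%), and 6 without KCl 6 h library B. Between 1 and 6 h, BDNF called 7 beside 33.6%, with 2 higher at 6 h (15.8%) and 5 lower (17.7%), and KCl called 9 beside 59.6%, with 3 higher (30.9%) and 6 lower (28.7%), or 6 in all without KCl 6 h library B. The median size of the change was 0.53 for the 10 genes under BDNF against 0.23 for all genes, and 0.61 under KCl against 0.38. From 6 to 10 h of BDNF, limma called 0 of the 10 genes, as did edgeR and DESeq2, with 3 at an unadjusted p below 0.05 (Acan, Tnc and Has3), and 0.216% of all genes were called (0.074% higher and 0.142% lower). At KCl 10 h, described only, 2 of the 10 genes (Acan and Hapln1) were at least 2-fold above controls and 0 below, beside 7.87% of all genes (3.42% higher and 4.45% lower). The same 2 were at least 2-fold lower with BDNF than with KCl at 10 h, beside 7.84% (3.7% higher and 4.14% lower). No member differed at least 2-fold between KCl 10 h and KCl 6 h, where 2.31% of all genes did (1.23% higher and 1.07% lower).

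Chromatin around the genes was read from peaks whose midpoint lay in a gene body or within 50 kb of a start. There were 59 such peaks of 58177, all of them tested, with 1 at Acan, 9 at Bcan, 9 at Ncan, 5 at Vcan, 5 at Hapln1, 7 at Hapln4, 18 at Tnr, 3 at Tnc, 5 at Has2 and 3 at Has3. The neighbors Ncan and Hapln4 shared 6 of them, and 16 were nearer the start of another coding gene. In all, 21 peaks (35.6%) were called in at least 1 of 6 comparisons with controls, beside 31.3% of all peaks tested, and 9 of the 21 were at Tnr, the longest gene.

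By time, edgeR called 9 peaks at BDNF 1 h beside 17.3% of all peaks, with 4 gained (all peaks 12.5%) and 5 closing (4.78%), or 5 in all without BDNF 1 h library B or with same-time controls. BDNF 6 h called 2 beside 10.6%, with 1 gained (8.88%) and 1 closing (1.75%), or 1 in all without control 1 h A or B, BDNF 1 h A or B, or BDNF 6 h A or B, and BDNF 10 h called 3 beside 9.36%, with 1 gained (7.46%) and 2 closing (1.9%). KCl 1 h called 10 beside 8.34%, all gained (5.29% gained and 3.05% closing among all peaks), and this count depended on single libraries and on the test, with 1 without KCl 1 h library B, 4 without KCl 1 h library A, 6 without control 1 h library A, and 3 by limma on log2 values or with same-time controls. KCl 6 h called 4 beside 7.49%, all gained (5.44% and 2.06%), with 0 left without library A and 2 without library B, and also 2 without control 6 h A or B, BDNF 1 h A or B, BDNF 6 h A or B, or KCl 1 h A or B. KCl 10 h called 1, gained, beside 7.87% (5.91% and 1.96%), and 2 without control 1 h A or control 6 h B.

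Between BDNF and KCl, 10 peaks differed at 1 h beside 14.9% of all peaks, with 5 higher under BDNF (9.3%) and 5 lower (5.55%), and 4 or 2 in all without BDNF 1 h library A or B and 5 or 3 without KCl 1 h library A or B. At 6 h 1 differed, higher under BDNF, beside 3.63% (2.25% higher and 1.37% lower), and at 10 h 1, lower under BDNF, beside 1.99% (1.16% and 0.83%). The 1 at 6 h (chr8:70087889-70088276) lay inside Hapln4, 4.62 kb from its start and 32.8 kb from that of Ncan (log2 difference 1.39 ± 0.46, adjusted p = 0.0937), and none was left without KCl 6 h library B, control 6 h A, BDNF 1 h A or B, or BDNF 6 h A or B. The 1 at 10 h was lost without BDNF 10 h A or either KCl 10 h library.

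**Figure D4:**
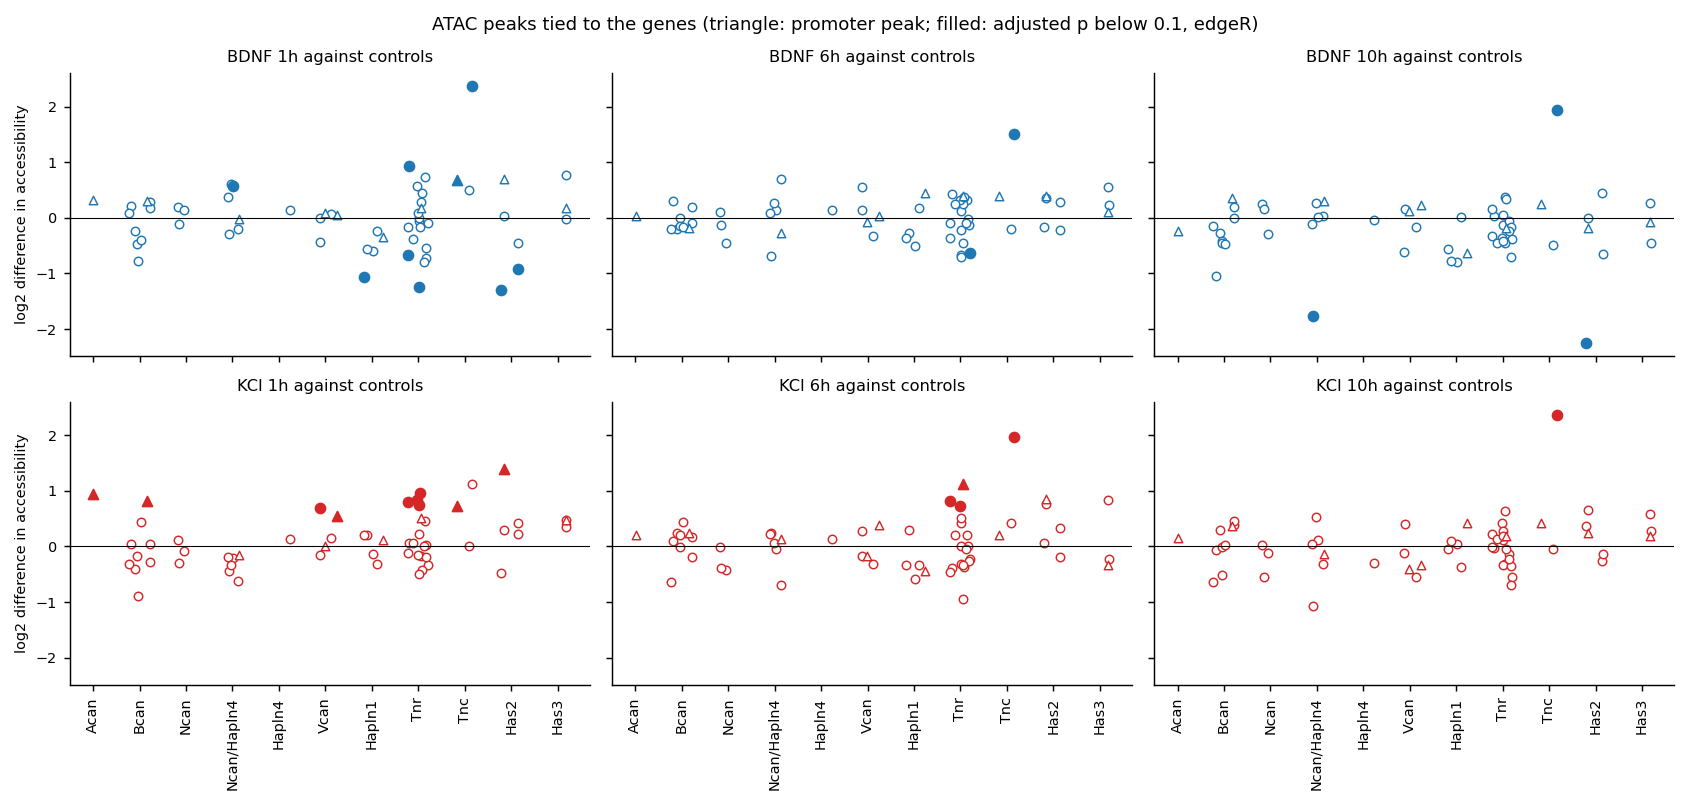
Log2 difference in accessibility from the 6 pooled controls for the 59 peaks, grouped by gene, with triangles for promoter peaks and filled marks where the adjusted p by edgeR is below 0.1. At KCl 1 h the 10 filled marks are all above 0 and 5 of the genes have a filled promoter, and the single Tnc peak that lies near 2 in most panels is the one 12.1 kb upstream.

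Promoter peaks gained at KCl 1 h at several of the genes, often by small margins. Beside those of Acan and Tnc, the Bcan promoter peak (chr3:88000099-88000489) went from 20.3 to 27.2 scaled counts in controls to 47.7 and 36.5 (0.81 ± 0.30, adjusted p = 0.098), and the call ended without any 1 of 11 libraries (control 1 h A or B, control 6 h A or B, control 10 h A, BDNF 1 h A or B, BDNF 6 h A or B, KCl 1 h A or B), with adjusted p of 0.102 to 0.507. The Vcan promoter peak at chr13:89742178-89742686 went from 51.8 to 85.8 in controls to 105 and 102 (0.54, adjusted p = 0.0738), and the Has2 promoter peak (chr15:56694693-56694833) from 1.44 to 16.9 to 12.8 and 22.9 (1.40, adjusted p = 0.0786). The Vcan call ended without control 1 h A, control 6 h B or either KCl 1 h library (adjusted p of 0.128 to 0.315), and the Has2 call, whose libraries overlapped the controls, without control 1 h A, control 6 h A or B, BDNF 1 h B or either KCl 1 h library (0.105 to 0.667). RNA of Bcan and Vcan was not called at KCl 1 h, and RNA of Has2 was lower. The study reports that peaks changed early by KCl lay in promoters more often than peaks changed early by BDNF. Whether promoter peaks of these genes gained more often than promoter peaks in general was not tested.

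Vcan also had an intronic peak, 2.99 kb from the start (chr13:89739354-89739690), that was its largest call. It held 52.9 to 96.1 scaled counts in controls and 85.9 and 136 at KCl 1 h, so that 1 of the libraries lay within the control range (0.69 ± 0.19, adjusted p = 0.0196). The call ended on leaving out KCl 1 h library B (adjusted p = 0.695), by limma (0.108) and with same-time controls (0.244). BDNF was below KCl there at 1 h (-0.68 ± 0.25, adjusted p = 0.0558). Of the remaining promoter peaks of Vcan, Ncan and Hapln1, none was called against controls by edgeR with LOESS offsets. The second Vcan promoter peak (chr13:89740092-89740851) held 104 to 145 in controls and 128 and 127 at KCl 1 h (0.02, adjusted p = 0.967), and at KCl 10 h its 93.5 and 97.7 lay below all controls (-0.40, adjusted p = 0.184), a difference that passed with TMM scaling (-0.53, adjusted p = 0.0309), DESeq2 size factors (-0.58, adjusted p = 0.0164) and the DESeq2 test (adjusted p = 0.0253). The Ncan promoter peak (chr8:70120767-70121079) held 32.4 to 47.0 in controls, with differences of -0.28 to 0.31 over the 6 comparisons. The Hapln1 promoter peak (chr13:89539422-89539741) held 7.36 to 35.3 in controls, with differences of -0.62 to 0.45.

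The Tnr promoter peak (chr1:159523627-159524347) opened at KCl 6 h, from 21.9 to 48.0 in controls to 73.6 and 76.2, above all of them (1.13 ± 0.27, adjusted p = 0.00459). The call ended on leaving out KCl 6 h library A (adjusted p = 0.149) and stayed at 1.10 without library B (adjusted p = 0.0379), and Tnr RNA at that time was -0.28 (adjusted p = 0.144). In the introns of Tnr, the peaks 147 kb and 163 kb from the start passed narrowly at KCl 6 h (0.73, adjusted p = 0.0928, and 0.82, adjusted p = 0.0998), and neither passed without KCl 6 h library A (0.671 and 0.141) or library B (0.114 and 0.574). At KCl 1 h the first gave 0.84 (adjusted p = 0.0183), lost without KCl 1 h library A (0.155) or B (0.168), and the second 0.80 (adjusted p = 0.0588), lost without KCl 1 h library B (0.626). A peak 5.94 kb upstream (chr1:159517602-159518056) gained at BDNF 1 h by 0.94 ± 0.22 (adjusted p = 0.000598, and 0.0217 and 0.022 without library A or B), with BDNF above KCl by 0.87 ± 0.27 (adjusted p = 0.0241), while Tnr RNA at BDNF 1 h was not called. The Tnr peak with the largest called size, 299 kb from the start and nearer the start of another coding gene, closed at BDNF 1 h (-1.25 ± 0.46, adjusted p = 0.055). That last call ended on leaving out BDNF 1 h library A (adjusted p = 0.575) or control 6 h library A (0.117).

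Closing peaks were seen with BDNF. At Hapln1, an intronic peak 67.8 kb from the start (chr13:89607353-89607827) held 38.0 to 60.3 scaled counts in controls and 28.6 and 19.9 at BDNF 1 h, below all controls (-1.07 ± 0.29, adjusted p = 0.00379), and 54.6 and 61.4 at KCl 1 h. BDNF was below KCl by 1.28 there (difference -1.28 ± 0.33, adjusted p = 0.00405). The call against controls ended on leaving out BDNF 1 h library B (adjusted p = 0.234), and Hapln1 RNA at BDNF 1 h was not called.

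At Has2, an intronic peak (chr15:56692656-56693417) closed at BDNF 1 h (-0.92, adjusted p = 0.0055 by edgeR) and was not called at KCl 1 h (0.42, adjusted p = 0.277). BDNF was below KCl there at 1 h (-1.34 ± 0.29, adjusted p = 0.000515), the lowest adjusted p of the 10 peaks called in that comparison. Values without single libraries are not given for it. Another Has2 peak, 38.3 kb upstream (chr15:56732715-56732989), held 12.6 to 20.0 scaled counts in controls. After BDNF it held 7.52 and 5.20 (1 h), 12.4 and 15.1 (6 h) and 1.47 and 4.53 (10 h). The difference at BDNF 1 h was -1.29 (adjusted p = 0.0827), which did not hold under TMM scaling (adjusted p = 0.221) or without either BDNF 1 h library (0.174 and 0.446). It was -2.26 ± 0.67 at BDNF 10 h (adjusted p = 0.018) and -2.62 ± 0.73 against KCl 10 h (adjusted p = 0.0462), with counts so low that leaving out BDNF 10 h library A ended the first call (adjusted p = 0.296). An intronic peak of Ncan, shared with Hapln4 (chr8:70119412-70119728), held 16.8 to 41.2 in controls and 12.6 and 2.37 at BDNF 10 h (-1.77 ± 0.54, adjusted p = 0.0227), and it ended on leaving out BDNF 10 h library B (adjusted p = 0.535). None of the 3 peaks of Has3 was called at an adjusted p below 0.1, including its promoter peak (chr8:106870655-106871366), at 0.48 ± 0.23 at KCl 1 h (adjusted p = 0.223) and -0.33 ± 0.29 at KCl 6 h (adjusted p = 0.605), where its RNA rose.

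Genes that finish and cut the net components were read from lists, whose counts stand beside the shares of all genes called higher and lower, 21.3% and 19.0% at BDNF 1 h, 22.1% and 21.1% at BDNF 6 h, 21.1% and 19.5% at BDNF 10 h, 26.5% and 28.2% at KCl 1 h, and 33.4% and 33.1% at KCl 6 h. The median log2 difference of all genes was -0.01 to 0.01 in these comparisons. Of 23 genes of chondroitin sulfate synthesis and sulfation, 22 were tested, and 6 were higher and 8 lower after 1 h of BDNF, 9 higher and 2 lower after 6 h, and 5 higher and 2 lower after 10 h, with medians of -0.17, 0.06 and 0.01. KCl gave 5 higher and 10 lower after 1 h (median -0.24), and 13 higher and 3 lower after 6 h (median 0.27), or 13 and 1 without library B. Chst15, which adds the second sulfate of chondroitin sulfate E, fell at 1 h of both stimuli (-0.67 for BDNF and -0.86 for KCl, adjusted p = 1.32e-07) and rose at KCl 6 h (948 against 327 normalized reads, 1.53 ± 0.09, adjusted p = 1.43e-11; 1.63 without library B). Chpf, a chondroitin polymerizing factor, rose at all 5 tested times (0.42 to 1.12, and 0.71 at KCl 6 h without library B). Chsy3, a chondroitin synthase, rose at KCl 6 h (1.03, adjusted p = 1.52e-05; 1.40 without library B), and the sulfotransferase Chst12 fell at BDNF 1 h (-1.20, adjusted p = 2.57e-08). Chst7, another sulfotransferase, rose at KCl 6 h (1.19 ± 0.19, adjusted p = 1.74e-05; 1.06 without library B).

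Of 10 proteases that cut lecticans, 8 were tested. By direct test at 6 h, 1 was higher and 7 lower with BDNF than with KCl (median -0.68). Of all genes, 29.6% were higher and 27.8% lower in that test. The number of lower proteases fell when either KCl 6 h library was left out, with medians of -0.62 without library A and -0.74 without library B. Against controls, 1 was higher and 7 lower at BDNF 10 h (median -0.54), and 6 were higher and 0 lower at KCl 6 h (median 0.40). The KCl 6 h count was 4 higher without library B and 3 without library A, with 0 lower in both. At the other times it was 1 higher and 3 lower at BDNF 1 h, the same at BDNF 6 h, and 2 of each at KCl 1 h, with medians of -0.19, -0.24 and -0.23. Adamts15, an aggrecanase, held 153 to 179 normalized reads in controls and was lower at BDNF 10 h (mean 74.6, -1.15 ± 0.13, adjusted p = 1.19e-06) and higher at KCl 6 h (mean 303, 0.86 ± 0.13, adjusted p = 1.14e-05; 0.96 without library B). Adamts16 was lower at BDNF 6 h (-1.41, adjusted p = 0.00102) and BDNF 10 h (-1.35, adjusted p = 0.00185).

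Of 10 genes that bind or break down hyaluronan, 8 were tested, with 1 higher and 2 lower after 1 h of BDNF, 0 higher and 1 lower after 6 h, and 0 higher and 2 lower after 10 h, and medians of -0.07, -0.16 and -0.27. KCl gave 2 higher and 2 lower after 1 h (median 0.18), and 4 higher and 2 lower after 6 h (median 0.03), or 3 and 2 without library B. Cd44, a hyaluronan receptor, was 519 at KCl 6 h against 237 in controls (1.12 ± 0.16, adjusted p = 4.06e-06; 0.86 without library B), and Tnfaip6, a hyaluronan-binding protein, rose by 1.13 (adjusted p = 0.000238; 0.91 without library B).

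All 17 other net proteins and receptors were tested, with 5 higher and 1 lower after 1 h of BDNF, and 7 higher and 4 lower after both 6 and 10 h, and medians of 0.14, 0.06 and -0.13. KCl gave 9 higher and 2 lower after 1 h (median 0.19), and 7 higher and 5 lower after 6 h (median 0.09), or 10 and 3 without library B. The pentraxins Nptx1 and Nptx2, secreted proteins that cluster AMPA receptors, rose 3.55 ± 0.10 (6525 against 561 normalized reads) and 3.21 ± 0.13 (1842 against 198) at BDNF 1 h, and at KCl 1 h their differences were 0.14 (adjusted p = 0.287) and 0.11 (adjusted p = 0.497). Sema3a, a repellent that binds nets, rose at BDNF 6 h (1.03 ± 0.07, adjusted p = 5e-10) and KCl 6 h (0.56, adjusted p = 1.22e-06; 0.59 without library B), and Otx2, a homeobox protein taken up by net-bearing cells, fell at BDNF 10 h (-1.23, adjusted p = 0.0129) and KCl 6 h (-1.06, adjusted p = 0.0149; -1.51 without library B, and -0.61 with adjusted p = 0.264 without library A). The pentraxin receptor Nptxr rose at BDNF 6 h (9010 against 3679 normalized reads, adjusted p = 1.44e-11), and Crtac1 at BDNF 6 h (1.02, adjusted p = 9.26e-06). Of the Nogo receptor family, Rtn4rl2 rose at BDNF 1 h (1.60 ± 0.10, adjusted p = 1.43e-11) and Rtn4rl1 at BDNF 6 h (1.07, adjusted p = 1.67e-08) and KCl 6 h (1.11, adjusted p = 2.57e-09; 1.18 without library B).

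The genes whose 9 group means followed a member most closely were found by Pearson's r on the log2 scale, among 6133 genes whose means spanned at least 1. For Acan these were Unc13a (r = 0.986), Pou6f1 (0.984) and Gch1 (0.983), for Hapln1 they were Sema3c (0.985), Cadm2 (0.984) and Avpr1a (0.983), and for Hapln4 they were Ppp1r15a (0.988), Ankrd11 (0.987) and Zfp248 (0.975). The points are means of 2 libraries each from 1 experiment, and Gch1, with group means of 8.31 to 71.5 normalized reads, is counted in few reads. Pearson's r takes no account of the size of a change. Over the groups Unc13a ran from 2478 to 5169 normalized reads and Pou6f1 from 1373 to 3414, while Acan ran from 10.5 to 402. The 9 means include KCl 10 h, the group used to pick the set. These likenesses are descriptions over 9 group means.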

How the data were processed

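RNA-seq and ATAC-seq of the same 9 groups were analyzed, 18 libraries each, 2 per group, with groups taken from the sample labels. For RNA, the deposited signal holds gene read counts that the authors divided by 1 DESeq2 size factor per library after mapping to mm10 with TopHat2 and GENCODE M16 transcripts. The counting program and its use of strand are not given in the sources used here. Every value was a whole multiple of its column's smallest step (100% within 0.01), so whole reads were recovered. For ATAC, the deposited values are counts over peaks, whole numbers not yet scaled, which the authors made with Bowtie2, MACS2 and DiffBind. Tool names are from the submitters' processing notes and the study's methods. From the deposited tables of the authors' own comparisons only gene identifiers and symbols were read, and their log2 fold changes, errors, statistics and p-values were not used. The letters A and B are those of the RNA column names, while ATAC columns name only the group, so there the letters give the column order.

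RNA was tested as log2(deposited signal + 1) with limma 3.58.1 (trend, robust) in R 4.3.3, and ATAC counts with edgeR 4.0.16 (quasi-likelihood, LOESS offsets), each with 7 levels (3 times of BDNF, 3 of KCl, 6 pooled controls), two-sided, over features with a mean of at least 10 (16209 genes, 56383 peaks), called at an adjusted p below 0.1. Control times were compared with 9 levels. A fold change on the log2(value + 1) scale understates changes of weak genes, while folds in the text are ratios of mean normalized reads. Means of 2 libraries set low precision, and low genes such as Acan, Has2 and Hapln4 add counting error. Levels per kb used the exon union of GENCODE M21, which also gave positions (mm10, GRCm38). Promoter peaks overlapped 1000 bp upstream to 100 bp downstream of an annotated start. RefSeq promoters (250 bases before to 50 after a start, GRCm38.p6) were given for 7 of the 10 genes, and 165 of 165 read again from the genome were identical.

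The 10 genes and the lists of related genes and markers were chosen with earlier results of these data known. Named are all 10 genes, genes of the lists called in at least 1 tested comparison with controls with a log2 size of at least 1 (at most 8 per list), Hapln2, Hapln3 and Has1, the 3 genes most like Acan and each member with a called size of at least 1, and for each member the peak with the largest called size and its promoter peaks. Other peaks and genes in the text were chosen after their values were seen. Alternatives were pseudocounts of 0.5 and 5, no filter, TMM scaling, edgeR and DESeq2 1.42.0, controls of the same time, other distances, a stricter threshold, a replicate block and each library left out. The scripts were tested on simulated data.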

Additional observations from a re-analysis of the deposited data

Results flagged for a closer look

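Between 1 and 6 h, 7 of the 10 genes changed under BDNF and 9 under KCl by a test of the difference between the times (limma, adjusted p below 0.1), and each is listed for that reason. Under BDNF the log2 difference of 6 h from 1 h was -2.08 for Acan, -0.37 for Ncan, -0.54 for Vcan, -0.84 for Hapln1, -0.73 for Hapln4, 0.52 for Tnc and 0.40 for Has3. Under KCl it was 3.64 for Acan, -0.23 for Bcan, -0.55 for Ncan, -0.42 for Vcan, 0.64 for Hapln1, -0.95 for Hapln4, -0.62 for Tnr, -0.42 for Tnc and 1.26 for Has3. Acan, Hapln1 and Tnc had opposite signs under the 2 stimuli, and Ncan, Vcan, Hapln4 and Has3 had the same sign. Without KCl 1 h library B the call of Bcan under KCl was lost (-0.15, adjusted p = 0.247), and without KCl 6 h library B those of Bcan (-0.10, adjusted p = 0.361), Hapln4 (-0.49, adjusted p = 0.112) and Tnr (-0.35, adjusted p = 0.223). No control library stood apart from the other 5 in any of 26 tests of the 10 genes and 16 named peaks by Dixon's criterion, which flags about 1 group in 20 by chance.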

How the results depend on the processing

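Of the single-gene and single-peak results under all alternatives, none changed direction while called. Against controls of the same time the number of genes called fell to 3 at BDNF 10 h and 2 at KCl 1 h, and of peaks to 5, 1 and 0 at BDNF 1, 6 and 10 h and 3 and 2 at KCl 1 and 6 h, with fewer control libraries in each test. At an adjusted p below 0.01 there were 3 genes at BDNF 10 h, 2 at KCl 1 h and 1 between the stimuli at 1 h, and for peaks 5, 1 and 1 at BDNF 1, 6 and 10 h, 1 and 2 at KCl 1 and 6 h, and 2, 0 and 0 between the stimuli at 1, 6 and 10 h. DESeq2 on whole reads called 3 genes between the stimuli at 1 h. For peaks, limma on log2 values called 1 at BDNF 6 h, 3 at KCl 1 h, and 3 and 3 between the stimuli at 1 and 6 h. TMM scaling, DESeq2 size factors and the DESeq2 test each called 3 at KCl 10 h, and between the stimuli at 6 h the size factors called 2 and the DESeq2 test 0. Peaks within 100 kb gave 4 at BDNF 6 h and 4 at KCl 10 h, and peaks within 20 kb 0 between the stimuli at 10 h. The causes were not tested. Leaving out 1 library gave 3 to 4 genes at BDNF 1 h, 5 to 6 at BDNF 6 h, 4 to 5 at BDNF 10 h, 3 to 6 at KCl 1 h, 7 to 9 at KCl 6 h, 1 to 5 and 4 to 6 between the stimuli at 1 and 6 h, 5 to 8 and 6 to 10 from 1 to 6 h of BDNF and KCl, 0 from 6 to 10 h of BDNF and between control times, and 2 past 2-fold at KCl 10 h. For peaks it gave 5 to 10, 1 to 2 and 2 to 4 at BDNF 1, 6 and 10 h, 1 to 10, 0 to 4 and 1 to 2 at KCl 1, 6 and 10 h, and 2 to 11, 0 to 1 and 0 to 1 between the stimuli. With the letters A and B as a replicate block in RNA, 120 of 120 gene results kept their call. The letters were not shown to pair libraries, since same-letter deviations correlated at -0.31 to 0.42 (median 0.06) over 36 pairs of groups, with 13 above 0.1. No paired analysis was possible for ATAC because its columns carry only the group. Control libraries held 7 to 62 reads of Acan, and all libraries 6 to 40 of Has2, so that counting error limits both.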
